A study of Mus musculus with 13 samples.

Results

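The genes described are 10 of the 23418 in the deposited count table: the laminin chain genes Lama2, Lama4, Lama5, Lamb1, Lamb2 and Lamc1, and Nid1, Nid2, Hspg2 and Agrn, which encode proteins that tie laminin to the rest of the basement membrane. They were chosen by name for their role in the basement membrane of muscle, and all 10 passed the filter on low counts. Bulk RNA was sequenced in 13 mouse libraries, made from FAPs of skeletal muscle (4 libraries, numbered 2 to 5), FAPs of lung (5 libraries, numbered 1 to 5) and MEFs (4 libraries, numbered 1 to 4). FAP is the field's short form of fibro-adipogenic progenitor, a mesenchymal cell between muscle fibres, and MEF that of mouse embryonic fibroblast. The labels give these names alone, with no strain, genotype, sex, age, sorting gate or culture time, and do not say whether replicates come from separate animals or cultures, so a p-value here reflects only how these libraries scatter, part of which may be technical. By its design text the RNA part of the series looks for transcripts of FAPs that drive differentiation of satellite cells, which are muscle stem cells.

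The basement membrane is the thin matrix sheet that wraps each muscle fibre and holds the satellite cell against it. Laminins are its scaffold and are built as trimers of an alpha, a beta and a gamma chain. The alpha chain decides which receptors a laminin binds, chiefly integrins and dystroglycan. Nidogens bridge laminin to type IV collagen, perlecan (Hspg2) is a large heparan sulfate proteoglycan that binds both, and agrin binds laminin and dystroglycan and, in its neural form, organises acetylcholine receptors at the neuromuscular junction.

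The libraries held 28636183 to 44699463 counted reads. Levels are in CPM, read counts set to a common library size after TMM, a correction for library composition. Calls of higher or lower mean an adjusted p (Benjamini-Hochberg) under 0.05 in edgeR's quasi-likelihood test over all 15412 genes tested. The FAP marker Pdgfra was high in both kinds of FAP, with 1270.0 to 1487 CPM for muscle FAPs, 776 to 846 CPM for lung FAPs and 23.0 to 34.7 CPM for MEFs. Among lung libraries, lung FAP 2, 3 and 4 stood apart. Lung FAP 2 had the highest summed level of 12 endothelial markers (1016 CPM). That sum was 235 to 541 CPM in the other lung FAPs, 225 to 302 in muscle FAPs and 221 to 262 in MEFs. Most of it came from Tek in muscle FAPs (mean 252 CPM) and from Kdr in MEFs (mean 172 CPM). Tek averaged 187 CPM in lung FAPs. The endothelial sums therefore do not compare endothelial content between the groups. Lung FAP 3 had the highest summed level of 13 lung epithelial markers (8923 CPM). The epithelial sum was 115 to 228 CPM in the other lung FAPs, 8.75 to 13.1 in muscle FAPs and 88.1 to 119.8 in MEFs, where most of it came from Krt19. In lung FAP 4 short transcripts were relatively high and long ones low, with median differences from the other lung FAPs of 0.19 on the log2 scale under 2 kb and −0.20 over 6 kb. The same medians were 0.13 and −0.20 in muscle FAP 5, and −0.13 and 0.18 in MEF 4, each against its own group.

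Muscle FAPs carried more transcript than lung FAPs of 8 of the 10 genes and less of the other two, Lama5 and Agrn. Of all genes tested, 23.2% passed as higher and 25.0% as lower in that comparison, 48.2% in all (3574 and 3850 genes, and 1730 and 7455 when scaled by library size alone). The median log2 fold change of the 10 was 1.65, against −0.04 over all genes tested. Against MEFs the same 8 genes were higher in muscle FAPs and Lama5 and Agrn lower, where 36.1% of all genes passed as higher and 37.3% as lower, 73.5% in all. In that comparison the libraries of none of the 10 overlapped, beside 35.7% of all genes without overlap on the higher and 38.2% on the lower side. Lung FAPs differed from MEFs in fewer of them, with 5 higher (Lama2, Lama4, Lamb2, Lamc1 and Nid1), 0 lower and 5 not passing, against 37.8% of all genes higher and 36.6% lower, 74.4% in all. Lung FAPs and MEFs did not overlap for Lama2, Lama4, Lamb2 and Lamc1, beside 32.2% of all genes without overlap on the higher and 33.1% on the lower side. At an unadjusted p under 0.05 Lama5 was also lower, and 2 passed as lower in DESeq2's Wald test (Lama5 and Hspg2). The libraries of muscle FAPs and lung FAPs did not overlap for 8 higher genes and 1 lower gene, while 19.0% of all genes were without overlap in each direction. The comparisons share libraries, so their results are not independent of each other. In bulk samples fewer cells of a type and less RNA per cell cannot be told apart.

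**Figure D1:**
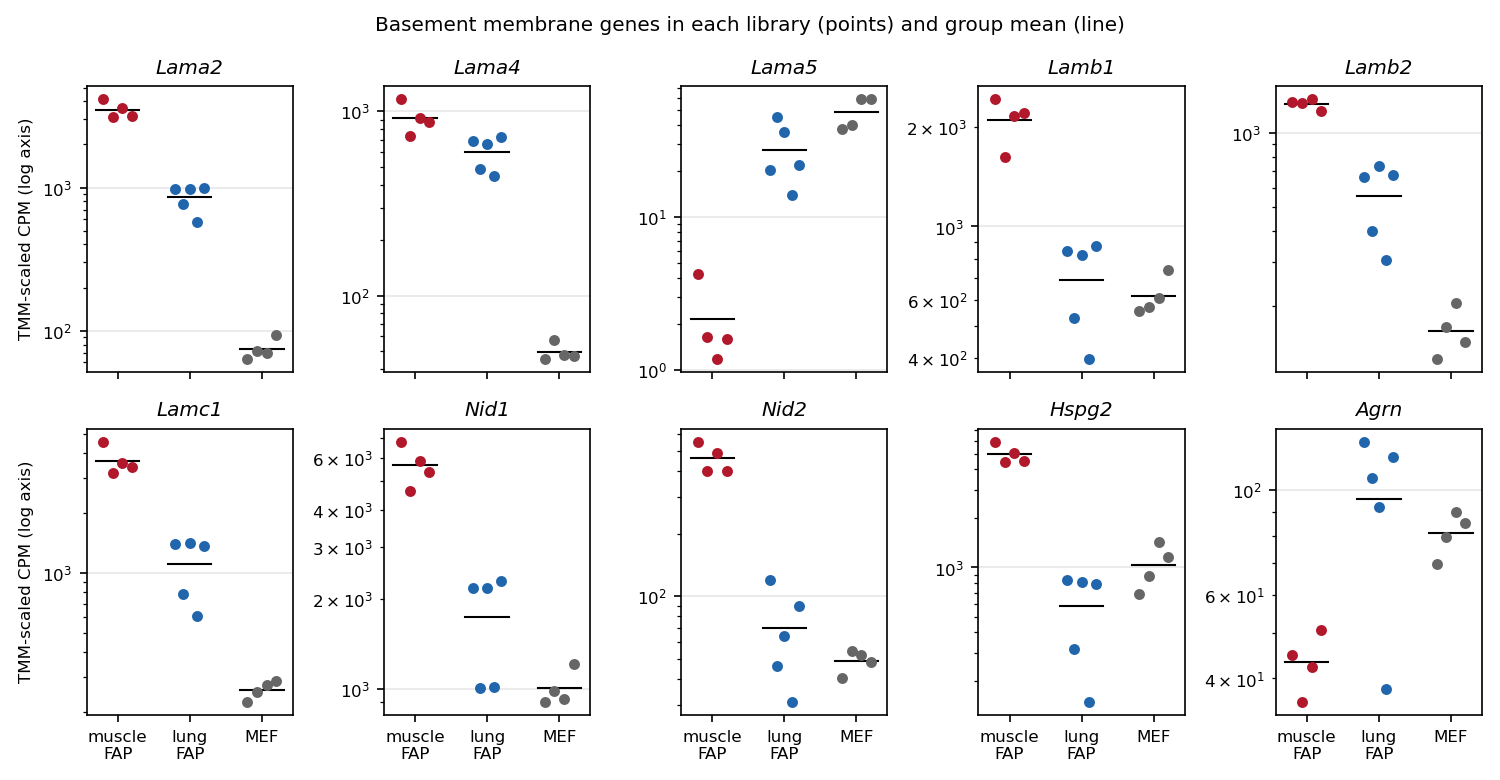
TMM-scaled CPM (log axis) of the 10 genes in each of the 13 libraries, as points, with the group mean as a line. In every panel but those of Lama5 and Agrn the muscle FAP libraries lie above all others, as with Lama2 at 3109 to 4156 CPM for muscle FAPs, 576 to 995 CPM for lung FAPs and 63.3 to 93.3 CPM for MEFs.

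**Figure D2:**
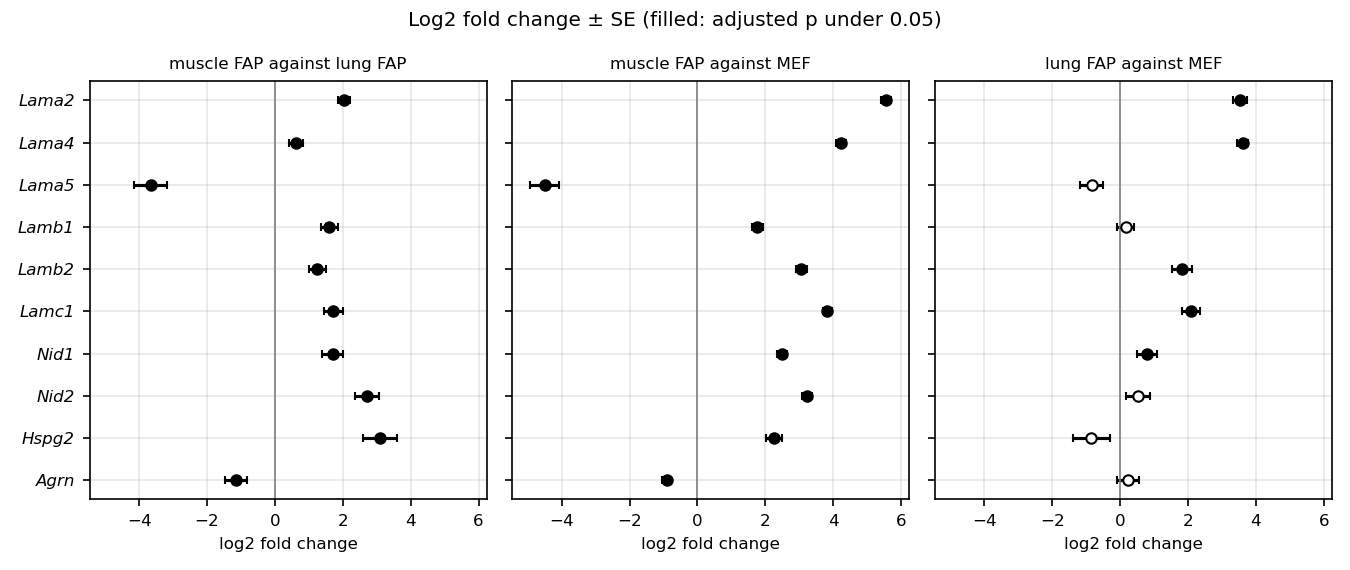
Log2 fold change (horizontal axis, points) with its SE (bars) of each gene in the 3 comparisons, with filled points for an edgeR adjusted p under 0.05. Lama2 had the largest rise over MEFs in muscle FAPs (5.56), and Lama5 the largest fall in both muscle FAP comparisons (−3.66 and −4.50).

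Lama2 encodes the alpha chain of the main laminin of mature muscle, whose loss causes congenital muscular dystrophy. It stood at 4156, 3109, 3599 and 3171 CPM in muscle FAPs 2 to 5, at 980.1, 772, 981, 576 and 995 CPM in lung FAPs 1 to 5, and at 63.3, 71.9, 69.4 and 93.3 CPM in MEFs 1 to 4. The groups were far apart, and lung FAP 4 was the lowest lung library. Muscle FAPs exceeded lung FAPs in Lama2 by 4.08-fold (2.03 on the log2 scale with an SE of 0.18, adjusted p = 3.64e-07 by edgeR) and MEFs by 47.1-fold (adjusted p = 1.01e-11). Lung FAPs held 11.6-fold more Lama2 than MEFs (adjusted p = 3.89e-10). The gene lies at chr10:26980036-27619758 (mm10, minus strand).

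Lama4 encodes an alpha chain with a shortened N-terminus that is typical of vessels and of mesenchymal tissue. It stood at 1167, 737, 924 and 875 CPM in muscle FAPs, at 693, 484, 665, 444 and 729.7 CPM in lung FAPs, and at 45.2, 57.3, 47.8 and 46.8 CPM in MEFs. The gene lies at chr10:38965515-39110188 (plus strand). Both kinds of FAP were well above MEFs, and the lowest muscle FAP was just above the highest lung FAP. The difference between muscle FAPs and lung FAPs was 1.53-fold (0.62 on the log2 scale with an SE of 0.20, adjusted p = 0.00653 by edgeR). Scaled by library size alone it was 0.22 (adjusted p = 0.235), a scaling that moved the median of all genes to −0.44, and leaving out lung FAP 2, 3 and 4 gave 0.37 (adjusted p = 0.0855). Lama4 was 18.8-fold above MEFs in muscle FAPs and 12.2-fold above MEFs in lung FAPs (edgeR adjusted p = 5.83e-11 and 1.93e-10).

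Lama5 encodes a long alpha chain of epithelial and endothelial basement membranes, and it ran the other way. It stood at 4.25, 1.66, 1.18 and 1.59 CPM in muscle FAPs (146, 56, 41 and 53 reads), at 20.3, 45.0, 35.9, 14.0 and 22.03 CPM in lung FAPs, and at 37.9, 39.8, 59.2 and 59.4 CPM in MEFs. The gene lies at chr2:180176373-180225859 (minus strand). Muscle FAPs lay below every other library. Lama5 was lower in muscle FAPs by 12.6-fold relative to lung FAPs (−3.66 on the log2 scale with an SE of 0.49, adjusted p = 1.81e-05 by edgeR) and by 22.6-fold relative to MEFs (adjusted p = 1.01e-06). The highest lung libraries were lung FAP 2 and lung FAP 3, those with the highest endothelial and epithelial marker sums. Without both, Lama5 was at −3.12 for muscle FAP against lung FAP (edgeR adjusted p = 1.06e-05, with 1.17e-22 to 0.000255 over all alternatives). Lung FAP 4, with the next highest endothelial sum (541 CPM), had the lowest Lama5 of the lung libraries. Lung FAP 2 also had the highest sum of pericyte and smooth muscle markers among lung libraries (2325 CPM). The part of those cell types in the Lama5 level was not tested. For lung FAP against MEF the log2 fold change was −0.84 (adjusted p = 0.0505). Leaving out lung FAP 2 gave −1.12 (adjusted p = 0.00918) and leaving out lung FAP 3 −0.95 (adjusted p = 0.0392), and it was −0.85 without muscle FAP 2 (adjusted p = 0.0181) and without muscle FAP 4 (adjusted p = 0.0444).

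The sequences before the starts of Lama2 and Hspg2, which were higher in muscle FAPs, and of Lama5 and Agrn, which were lower, are shown to set genes of opposite direction side by side. They are the up to 250 bases before the RefSeq start (GRCm38.p6), for 2 genes of each direction among the 7 of 10 found in that table, and capitals mark the GC box GGGCGG or its reverse complement CCGCCC. They come from chr10:27616943-27617192 (minus strand, within an intron of a longer annotated Lama2 transcript), chr4:137468553-137468768 (plus strand, ended before the annotated first exon), chr2:180225860-180226109 (minus strand) and chr4:156197489-156197738 (minus strand).
Lama2: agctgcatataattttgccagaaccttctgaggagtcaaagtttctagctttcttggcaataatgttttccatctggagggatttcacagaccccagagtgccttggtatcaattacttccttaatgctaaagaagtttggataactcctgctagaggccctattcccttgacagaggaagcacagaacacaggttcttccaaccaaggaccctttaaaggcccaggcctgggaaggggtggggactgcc
Hspg2: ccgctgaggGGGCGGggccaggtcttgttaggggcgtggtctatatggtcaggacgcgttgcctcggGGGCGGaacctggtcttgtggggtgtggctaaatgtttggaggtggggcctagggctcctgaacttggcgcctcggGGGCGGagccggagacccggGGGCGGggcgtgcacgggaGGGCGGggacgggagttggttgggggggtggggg
Lama5: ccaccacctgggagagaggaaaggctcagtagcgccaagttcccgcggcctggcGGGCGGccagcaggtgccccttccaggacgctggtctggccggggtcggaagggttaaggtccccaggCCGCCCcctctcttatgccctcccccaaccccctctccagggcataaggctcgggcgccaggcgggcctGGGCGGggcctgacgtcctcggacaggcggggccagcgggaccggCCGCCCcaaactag
Agrn: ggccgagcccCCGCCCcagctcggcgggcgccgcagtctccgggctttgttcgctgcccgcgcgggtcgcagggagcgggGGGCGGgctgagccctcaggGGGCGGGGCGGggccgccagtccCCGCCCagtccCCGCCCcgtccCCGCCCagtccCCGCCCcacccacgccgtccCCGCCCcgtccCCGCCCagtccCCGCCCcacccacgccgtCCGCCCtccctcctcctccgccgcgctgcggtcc
Counted over the whole 250 bases, the Lama2 window held 0 GC boxes at 47.2% G and C, the Hspg2 window 5 at 70.0%, the Lama5 window 4 at 72.4% and the Agrn window 12 (overlapping boxes counted) at 83.6%. Of 32851 such windows in the mouse table, 32.7% held at least 1 GC box on either strand, and the median share of G and C was 52.4%. TATAAA was in none of the 4 windows on either strand, and 12.4% of all windows held it. A second RefSeq start of Agrn, not shown, has its window at chr4:156186260-156186509 (minus strand). That window held 2 GC boxes at 60.8% G and C. The windows of Lamb1, Nid1 and Lamb2, also not shown, held 2, 1 and 0. Genes of both directions had windows rich in GC boxes, and Lama2 and Lamb2, also higher, had windows with none.

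Both beta chains, Lamb1 (chr12:31265234-31329644, plus strand) and Lamb2 (chr9:108479736-108490530, plus strand), were higher in muscle FAPs. Lamb1, the beta chain of embryonic and many adult laminins, stood at 2429, 1623, 2165 and 2203 CPM in muscle FAPs, at 840.4, 529, 817, 397 and 872 CPM in lung FAPs, and at 554, 571, 608 and 738 CPM in MEFs. Muscle FAPs were above all other libraries, and lung FAPs and MEFs overlapped. Lamb1 was higher in muscle FAPs, by 3.05-fold relative to lung FAPs (1.61 on the log2 scale with an SE of 0.26, adjusted p = 2.16e-05 by edgeR) and by 3.41-fold relative to MEFs (adjusted p = 4.93e-06). For lung FAP against MEF it was 0.16 (SE 0.24, adjusted p = 0.503), and −0.0199 when scaled by library size alone. It was 0.41 (adjusted p = 0.0132) without lung FAP 2 and 4. Lamb2, the beta chain concentrated at synapses and in kidney, stood at 1334, 1325, 1374 and 1232 CPM in muscle FAPs, at 662, 401, 737, 307 and 677 CPM in lung FAPs, and at 122, 164, 206 and 142 CPM in MEFs. The 3 groups were apart, with a tight spread in muscle FAPs. Muscle FAPs exceeded lung FAPs in Lamb2 by 2.36-fold (1.24 on the log2 scale with an SE of 0.25, adjusted p = 0.000391 by edgeR) and MEFs by 8.31-fold (adjusted p = 4.91e-08). Lung FAPs held 3.52-fold more Lamb2 than MEFs (adjusted p = 6.04e-06).

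Lamc1 encodes the gamma chain shared by most laminins and carries the nidogen-binding site, and lies at chr1:153218922-153332786 (minus strand). It stood at 4552, 3173, 3566 and 3409 CPM in muscle FAPs, at 1393, 785, 1422, 608 and 1375 CPM in lung FAPs, and at 225, 252, 275 and 287 CPM in MEFs. No library of one group reached another group. Lamc1 was higher in muscle FAPs, by 3.29-fold relative to lung FAPs (1.72 on the log2 scale with an SE of 0.28, adjusted p = 2.31e-05 by edgeR) and by 14.1-fold relative to MEFs (adjusted p = 5.07e-09). Lung FAPs held 4.30-fold more Lamc1 than MEFs (adjusted p = 1.30e-06).

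The laminin chains were set against each other per kilobase of their longest annotated transcript, as a description with no test. In muscle FAPs the alpha chains summed to 518 ± 79.3 CPM per kb, the beta chains to 598 ± 59.6 and Lamc1 to 482 ± 79.6 (SD, n = 4). In lung FAPs the sums were 192 ± 40.2, 218 ± 70.3 and 146 ± 51.0 (SD, n = 5), and in MEFs 20.2 ± 2.16, 135 ± 15.5 and 34.1 ± 3.596 (SD, n = 4). The summed alpha chains were thus 0.792 to 0.952 times the summed beta chains for muscle FAPs, 0.790 to 1.09 times for lung FAPs and 0.143 to 0.160 times for MEFs. Alpha transcripts were low beside beta transcripts in all 4 MEF libraries. Alpha over Lamc1 averaged 1.08, 1.38 and 0.593 in muscle FAPs, lung FAPs and MEFs, and 0.716, 0.932 and 0.397 when coding length was used.

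The makeup of the alpha chains also differed. Lama2 made up 70.5 ± 1.60% of alpha transcripts per kb in muscle FAPs (SD, n = 4), 46.7 ± 1.65% in lung FAPs (SD, n = 5) and 38.2 ± 3.24% in MEFs (SD, n = 4), and the muscle FAP range (69.1 to 72.6%) met neither of the others. Lama4 made up 27.4 to 30.8%, 48.7 to 54.6% and 34.1 to 46.3% in those groups. The share of Lama5 was 0.0197 to 0.0597% for muscle FAPs, 0.814 to 2.40% for lung FAPs and 17.1 to 25.6% for MEFs. Lamb2 made up 36.1 to 45.6% of beta transcripts for muscle FAPs, 43.8 to 48.1% for lung FAPs and 16.5 to 25.8% for MEFs. Both kinds of FAP overlapped there and MEFs stood below. The log2 ratio of Lama2 to Lama4 counts was 1.83 to 2.08 for muscle FAPs, above 0.37 to 0.67 for lung FAPs and 0.33 to 0.997 for MEFs, where lung FAPs and MEFs overlapped.

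**Figure D3:**
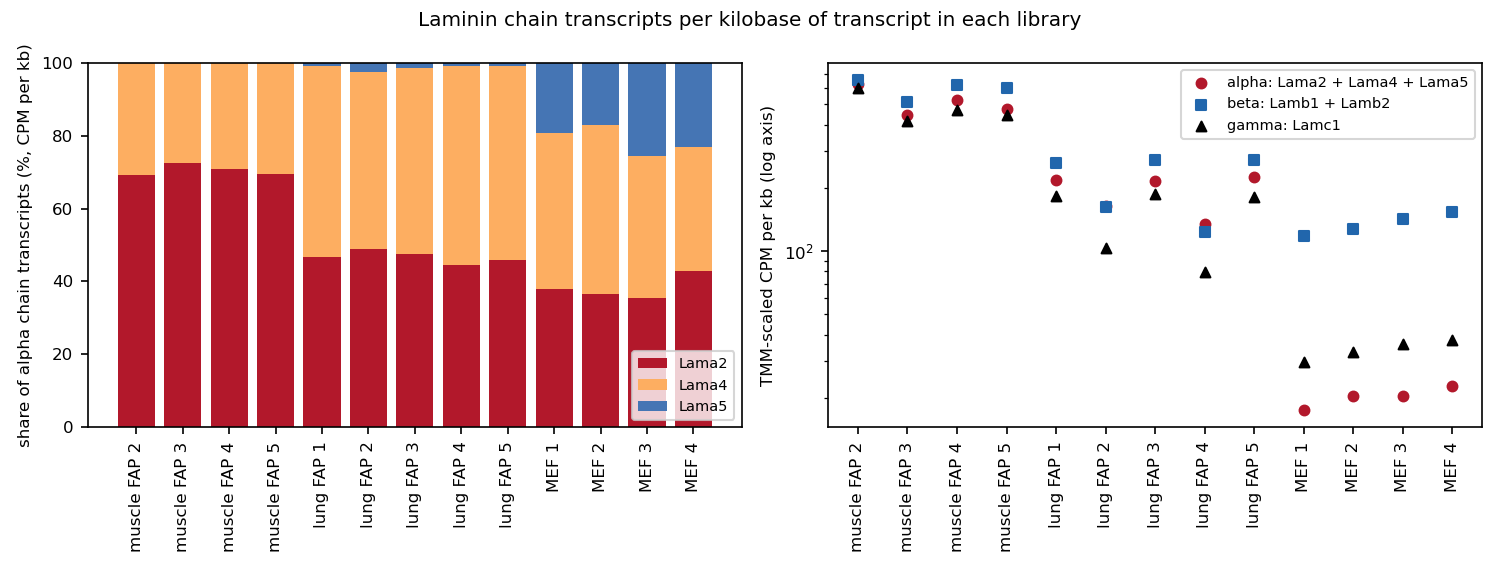
Left, the share (%) of Lama2, Lama4 and Lama5 in the summed alpha chain level (CPM per kb of transcript) of each library; right, the summed alpha, summed beta and Lamc1 level per kb (log axis) in the same libraries. Lama2 fills 69.1 to 72.6% of the bars in muscle FAPs, and in MEFs the beta points (117 to 153 CPM per kb) lie well above the alpha points (17.4 to 22.7).

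Nid1 (chr13:13437551-13512269, plus strand) and Nid2 (chr14:19751265-19811787, plus strand) were higher in muscle FAPs than in both other groups. Nid1, the main nidogen of most basement membranes, stood at 6787, 4642, 5845 and 5385 CPM in muscle FAPs, at 2188, 1007, 2192, 1012 and 2305 CPM in lung FAPs, and at 901, 980.1, 923 and 1208 CPM in MEFs. Lung FAP 2 and 4 were at the level of MEFs and the other lung FAPs above it. Muscle FAPs exceeded lung FAPs in Nid1 by 3.25-fold (1.70 on the log2 scale with an SE of 0.30, adjusted p = 5.63e-05 by edgeR) and MEFs by 5.65-fold (adjusted p = 8.83e-07). Lung FAPs were 1.74-fold above MEFs (0.80, SE 0.30, adjusted p = 0.0102). Nid2, its relative, stood at 550.4, 397, 489 and 401 CPM in muscle FAPs, at 119, 46.2, 64.3, 31.0 and 89.7 CPM in lung FAPs, and at 40.5, 54.3, 52.2 and 48.3 CPM in MEFs. Muscle FAPs stood far above both other groups, which overlapped. Nid2 was higher in muscle FAPs, by 6.55-fold relative to lung FAPs (2.71 on the log2 scale with an SE of 0.36, adjusted p = 9.35e-06 by edgeR) and by 9.41-fold relative to MEFs (adjusted p = 1.13e-06). For lung FAP against MEF it was 0.52 (SE 0.36, adjusted p = 0.131), and 0.68 (adjusted p = 0.0165) without lung FAP 4. The annotated span of Nid2 overlaps that of Rtraf on the other strand over 437 bases, and the strand of the libraries is not given in the sources used here.

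The heparan sulfate proteoglycans Hspg2 (chr4:137468769-137570630, plus strand) and Agrn (chr4:156165290-156197488, minus strand) moved in opposite directions. Hspg2 stood at 5885, 4431, 5036 and 4505 CPM in muscle FAPs, at 833, 316, 811, 149.5 and 790.0 CPM in lung FAPs, and at 689, 889.5, 1433 and 1152 CPM in MEFs. Muscle FAPs were above all others, and lung FAP 2 and 4 were the lowest libraries of all. Muscle FAPs exceeded lung FAPs in Hspg2 by 8.56-fold (3.10 on the log2 scale with an SE of 0.50, adjusted p = 5.06e-05 by edgeR), the largest rise among the 10 genes. Without lung FAP 2 and 4 it was 2.63. Muscle FAPs exceeded MEFs in it by 4.77-fold (adjusted p = 0.000445). For lung FAP against MEF it was −0.84 (SE 0.55, adjusted p = 0.0743), and leaving out lung FAP 1 gave −1.01 (adjusted p = 0.0487). Over all 27 alternatives it ran from −1.03 to −0.37 and passed in 3. Lung FAP 1, 3 and 5 lay within the range of MEFs, and lung FAP 2 and 4 below it.

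Agrn stood at 44.9, 35.7, 42.3 and 50.7 CPM in muscle FAPs, at 126, 106, 92.1, 38.0 and 117 CPM in lung FAPs, and at 69.8, 79.4, 89.97 and 85.2 CPM in MEFs. Lung FAP 4 alone among lung FAPs fell within the muscle FAP range. Agrn was lower in muscle FAPs by 2.21-fold relative to lung FAPs (−1.15 on the log2 scale with an SE of 0.33, adjusted p = 0.00241 by edgeR; −1.34 without lung FAP 4) and by 1.87-fold relative to MEFs (adjusted p = 0.00775). For lung FAP against MEF it was 0.24 (adjusted p = 0.399), and 0.42 (adjusted p = 0.00657) without lung FAP 4. Gene counts do not tell the neural splice forms of agrin from the others. The log2 ratio of Agrn to Hspg2 was −7.03 to −6.47 for muscle FAPs, −3.14 to −1.57 for lung FAPs and −3.99 to −3.30 for MEFs.

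Levels per kb ordered the genes within each group. In muscle FAPs Nid1 came first without overlap (930.03 ± 147 CPM per kb), followed by Lamc1 (482 ± 79.6), Lama2 (365 ± 50.3), Lamb1 (364 ± 59.1) and Hspg2 (349.9 ± 47.2). Within these last 4, neighbours in the order overlapped. Lamb2, Lama4, Nid2, Agrn and Lama5 followed without overlap, down to 0.190 ± 0.123 CPM per kb for Lama5. In lung FAPs Nid1 was again first (286 ± 109.9), Lama2 came sixth, and neighbours overlapped along the first 6 places. In MEFs Nid1 (165 ± 23.1) came first without overlap, Lamb1 (107 ± 14.4) followed and overlapped Hspg2 (73.4 ± 22.8), and Lama4, Lama2 and Lama5 held the last 3 places.

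The lung FAP libraries differed among themselves in these genes. In 8 of the 10, both lung FAP 2 and lung FAP 4 were below each of lung FAP 1, 3 and 5, as were 15.9% of all genes tested, and 9 of the 10 were lowest in lung FAP 4, as were 23.4% of all genes tested. Relative to the mean of lung FAP 1, 3 and 5, lung FAP 4 held 0.184 of Hspg2, 0.436 of Lamc1 and 0.638 of Lama4. Lung FAP 2 held 0.389 of Hspg2, 0.562 of Lamc1 and 0.696 of Lama4, but 1.73 of Lama5. Transcript length also moved with muscle FAP against lung FAP. Genes with transcripts over 6 kb had a median log2 fold change of 0.16, with 34.9% passing as higher, and those under 2 kb −0.13 with 14.2%. The 10 transcripts are 4.88 to 14.19 kb long. After each library's length trend was taken out, an alternative chosen after seeing the data, 8 of the 10 were still higher and 2 lower, with Lama2 at 1.80 and Hspg2 at 2.84. Without lung FAP 2 and 4 the counts were 8 and 2 as well, with Lama2 at 1.85 and Nid1 at 1.36.

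**Figure D4:**
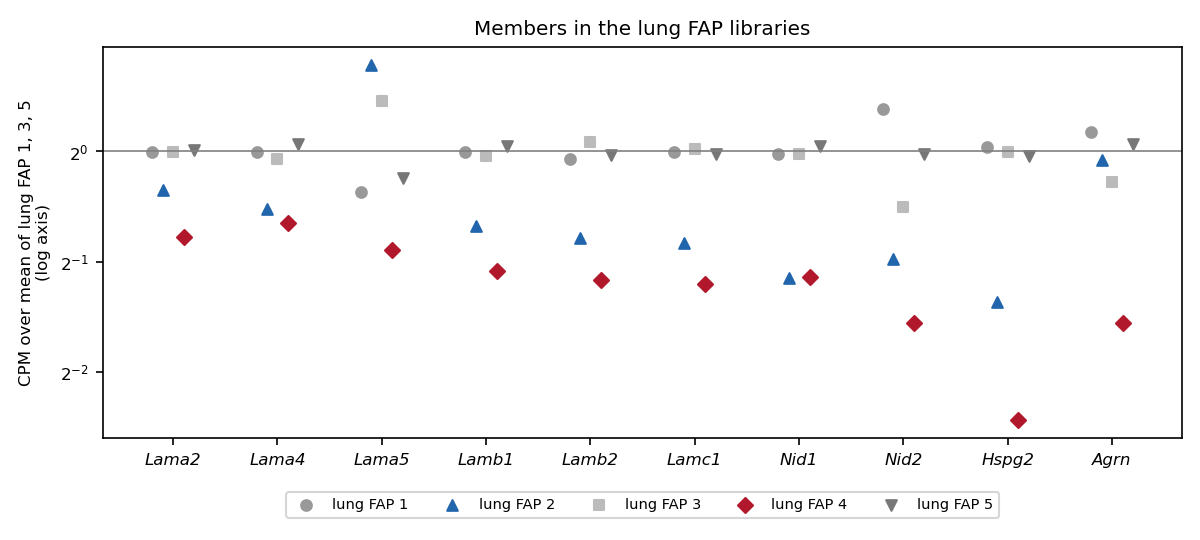
CPM of each gene in the 5 lung FAP libraries over the mean of lung FAP 1, 3 and 5 (log axis with base 2). Lung FAP 4 (diamonds) lies below the line at 1 for every gene, lowest for Hspg2 at 0.184, and lung FAP 2 (triangles) lies below it for all but Lama5, at 1.73.

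Of other cell types that make these proteins, markers were measured in the same libraries. Among 12 endothelial markers muscle FAPs exceeded lung FAPs in 1 and were below them in 9. Of all genes tested, 23.2% passed as higher and 25.0% as lower in that comparison. Pecam1 had 0.35 to 1.26 CPM in muscle FAPs, beside 4.44 to 131 CPM for lung FAPs and 0.41 to 0.74 CPM for MEFs. Among 10 markers of pericytes and smooth muscle, muscle FAPs exceeded lung FAPs in 1 and were below them in 8. Their sums were 122 to 126 CPM for muscle FAPs, 594 to 2325 CPM for lung FAPs and 2111 to 3718 CPM for MEFs. Of these markers Acta2 alone averaged 5.32 CPM in muscle FAPs, 446 CPM in lung FAPs and 2499 CPM in MEFs. Markers of muscle fibres and myoblasts were low, with sums of 11.3 to 16.2 CPM for muscle FAPs, 5.08 to 42.7 CPM for lung FAPs and 24.0 to 28.3 CPM for MEFs. Pax7 was at 0 in muscle FAPs. The 6 Schwann cell markers summed to 457 to 537 CPM for muscle FAPs, 801 to 1178 CPM for lung FAPs and 158 to 187 CPM for MEFs, mostly from 1 of them. Of 5 tested, muscle FAPs exceeded lung FAPs in 1 and were below them in 2, too few genes to set apart from the shares of all genes. Among these markers Sox10 was at most 0.210 CPM for muscle FAPs, 0.0571 CPM for lung FAPs and 3.76 CPM for MEFs. In muscle FAPs the summed epithelial markers were at most 13.1 CPM, the mesothelial 28.2 and those of blood cells 8.49, against ranges of 115 to 8923, 415 to 948 and 37.9 to 689 CPM in lung FAPs and of 88.1 to 119.8, 119.6 to 157 and 118 to 448 CPM in MEFs. In MEFs most of the epithelial sum and most of the mesothelial sum came from Krt19, a marker in both lists. Those MEF sums therefore do not by themselves show epithelial or mesothelial cells. The part of other cell types in the levels of the 10 genes in lung FAPs and MEFs was not tested.

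Of 31 other basement membrane genes tested, 12 passed as higher in muscle FAPs than in lung libraries and 7 as lower, with a median log2 fold change of 0.13, beside 23.2% of all genes higher and 25.0% lower. The lower count was near that background. Smoc2, a calcium-binding matrix protein, averaged 5291 ± 544 CPM over muscle FAPs (SD, n = 4) against 467 ± 111 CPM over lung FAPs (SD, n = 5), a difference of 3.50 on the log2 scale (adjusted p = 1.91e-09 by edgeR). Col4a2, a chain of the type IV collagen network, had 3321 to 4533 CPM in the muscle FAP libraries against 175 to 538 CPM in the lung FAP libraries (3.17, adjusted p = 2.15e-07). The lower genes with the largest changes were Tinagl1, a matrix protein that binds integrins, at 1.82 ± 0.335 CPM for muscle FAPs against 22.8 ± 15.7 CPM for lung FAPs (−3.64, adjusted p = 2.91e-05 by edgeR), and Fras1, which anchors epithelium to the underlying tissue, at 2.36 ± 0.913 CPM for muscle FAPs against 13.97 ± 5.21 CPM for lung FAPs (−2.56, adjusted p = 7.98e-06). Tinagl1 was highest among lung FAPs in lung FAP 2, at 49.3 CPM. The laminin chain genes Lama1, Lama3, Lamb3 and Lamc3, named after their values were seen, did not pass.

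Of 16 receptors for laminin and agrin tested, 4 passed as higher and 5 as lower in muscle FAPs relative to lung FAPs, with a median log2 fold change of 0.02. Both counts were near the shares of all genes, 23.2% higher and 25.0% lower. Musk, the kinase through which agrin signals at the neuromuscular junction, stood at 50.50, 40.8, 43.4 and 30.2 CPM in muscle FAPs, against 1.69, 0.771, 7.06, 5.38 and 3.55 CPM in lung FAPs and at most 0.170 CPM in MEFs. It was higher in muscle FAPs, by 11.2-fold relative to lung FAPs (3.48 on the log2 scale with an SE of 0.59, adjusted p = 4.66e-05 by edgeR). Lrp4, the agrin receptor that acts with Musk (named after its value was seen), went the other way, with a mean of 24.3 ± 3.09 CPM for muscle FAPs against 88.0 ± 27.4 CPM for lung FAPs (−1.85, adjusted p = 3.87e-06 by edgeR). Mcam, an adhesion molecule of vessel walls that binds Lama4-containing laminin, averaged 1.20 ± 0.595 CPM for muscle FAPs against 72.0 ± 86.5 CPM for lung FAPs (−5.90, adjusted p = 0.000158; −4.80 without lung FAP 2, which held 225 CPM). Bcam, a receptor for Lama5-containing laminin, averaged 0.985 ± 0.779 CPM for muscle FAPs against 45.5 ± 16.9 CPM for lung FAPs (−5.53, adjusted p = 3.39e-06 by edgeR). Dag1, dystroglycan, did not pass (372 ± 37.8 CPM for muscle FAPs against 272 ± 84.9 CPM for lung FAPs, 0.45, adjusted p = 0.0708). Sdc1, a cell surface heparan sulfate proteoglycan, was at 0.78 (adjusted p = 0.0416), and at an adjusted p of 0.0510 to 0.0924 without any one library other than lung FAP 3 or MEF 4.

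Enzymes that modify these proteins were counted as well. Of 16 genes tested for the sugar chain by which dystroglycan binds laminin, 2 passed as higher in muscle FAPs and 3 as lower, with a median log2 fold change of −0.10, beside 23.2% and 25.0% of all genes. Gmppb, which makes GDP-mannose, fell by 0.44 on the log2 scale (SE 0.13, edgeR adjusted p = 0.0186; 0.0520 and 0.0583 without muscle FAP 2 or 4). B3gnt1, an earlier symbol of B4gat1 that primes the chain, was at 0.38 (adjusted p = 0.00495), and at −0.02 when scaled by library size alone. Dpm1, a subunit of dolichol-phosphate-mannose synthase, was at 0.26 (adjusted p = 0.0457), at −0.15 when scaled by library size alone, and at an adjusted p of 0.0530 to 0.175 without any one of muscle FAP 3, 4 or 5, lung FAP 1, 3 or 5, or MEF 1, 2 or 4. Of 25 genes tested for heparan sulfate synthesis and editing, 11 passed as higher and 4 as lower, with a median of 0.24, beside the same shares of all genes. Among the 3-O-sulfotransferases Hs3st3b1 stood at 10.1 ± 1.66 CPM in muscle FAPs against 2.53 ± 0.8287 CPM in lung FAPs (1.996 on the log2 scale, adjusted p = 4.58e-06 by edgeR) and Hs3st3a1 at 5.78 ± 1.32 CPM in muscle FAPs against 1.93 ± 0.872 CPM in lung FAPs (1.58, adjusted p = 0.000796). Hs3st1 averaged 10.3 ± 1.75 CPM for muscle FAPs against 30.5 ± 5.45 CPM for lung FAPs (−1.57, adjusted p = 2.96e-06). B3gat3, which completes the linker of the sugar chain, was at −0.42 (adjusted p = 0.0209; 0.0502 and 0.0628 without muscle FAP 3 or 4).

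**Figure D5:**
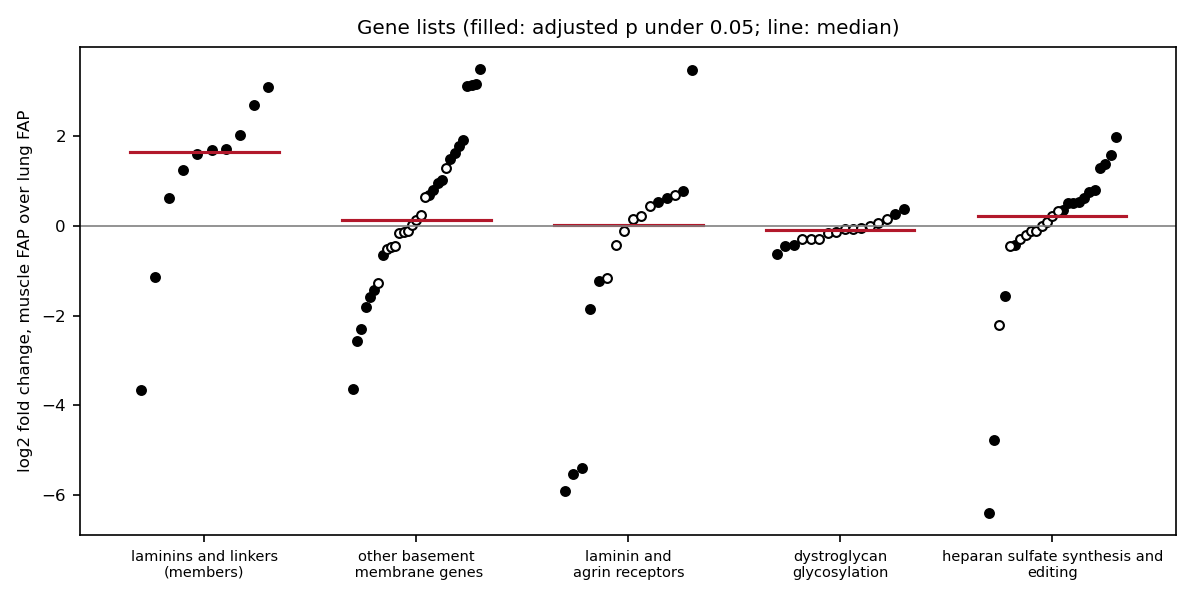
Log2 fold change of muscle FAP over lung FAP for each tested gene of 5 lists, in rising order within a list, with filled points for an edgeR adjusted p under 0.05 and a line at the median. The median of the 10 laminin and linker genes is 1.65 and those of the other lists lie from −0.10 to 0.24.

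Genes tested that averaged 10 CPM or more were ranked by likeness of log2 CPM across the 13 libraries. The members themselves and predicted symbols (Gm and Rik names) were left out of the ranking. Most like Lama2 were Col6a1, Col15a1 and Col6a2, with Pearson's r of 0.997, 0.996 and 0.996. Col6a1 and Col6a2 encode chains of type VI collagen and Col15a1 a collagen found next to basement membranes. Those most like Lama4 were Tgfbr3, Tnxb and Fut11 (0.997, 0.997 and 0.996), and those most like Lama5 were Alcam, Jph2 and Itga3 (0.978, 0.971 and 0.971). These values rest mainly on the distances between the 3 groups, which all the libraries of a group share, and are a description only.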

How the data were processed

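The submitters' processing notes name Bowtie2 2.1.0.0 as aligner with the mm10 build, HTSeq and edgeR. The authors deposited 1 table of raw read counts for 23418 genes in 13 libraries, with 0 columns of other samples. No annotation or strand setting is given in the sources used here. Library totals were 28636183 to 44699463 counts.

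Counts were scaled by TMM, filtered with filterByExpr and tested in R 4.3.3 with edgeR 4.0.16 (quasi-likelihood, robust dispersion, group as the only factor, all 13 libraries in 1 fit), with Benjamini-Hochberg adjustment over 15412 genes. The SE of a log2 fold change comes from log2 CPM with a prior count of 2. The fit was tested on simulated data for muscle FAP against lung FAP. It recovered 20.9% of genes changed 1.5-fold, 59.7% of those changed 2-fold and 81.8% of those changed 4-fold, with 2 false calls. A gene that did not pass can therefore still differ. Transcript lengths and coordinates are from GENCODE M21 (GRCm38, the assembly of mm10), which gave a length for 23072 genes. Promoters are from RefSeq.

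The members and lists were chosen with earlier results of these data known. Named are all 10 members and, per list, the 2 passing genes with the largest change in each direction with 5 CPM or more in the higher group, and for Lama2, Lama4 and Lama5 the 3 genes most like them. The lists held 32, 16, 18 and 26 genes, of which 31, 16, 17 and 26 were in the table. The alternatives were DESeq2 1.42.0 size factors and Wald test, upper-quartile scaling, library size only, 2 other filters, limma-voom (limma 3.58.1), glmTreat, both groups alone, a replicate block and libraries left out. Leaving out lung FAP 2 and 4 or lung FAP 2, 3 and 4, the length-adjusted offsets and the coding length were chosen after seeing the data. Some genes that the rule names are not reported here.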

Additional observations from a re-analysis of the deposited data

Results flagged for a closer look

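A sample far from the others of its group was looked for in 45 sets of values, the CPM of the 10 genes and 5 ratios between them in each of 3 groups, where chance marks about 1 in 20. There were 2 such samples. Lama5 stood at 4.25 CPM in muscle FAP 2, against 1.18 to 1.66 CPM in the other muscle FAPs. Muscle FAP 2 was also the highest muscle library for Lama2, Lama4, Lamb1, Lamc1, Nid1, Nid2 and Hspg2. The log2 ratio of Lamb2 to Lamb1 stood at −0.15 in lung FAP 3, against −0.40 to −0.34 in the other lung FAPs.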

How the results depend on the processing

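For muscle FAP against lung FAP and against MEF, 8 members were higher and 2 lower in the main analysis. Every library left out gave the same counts in both comparisons, as did the replicate block, and the lower count was 1 in each under glmTreat against a 2-fold change. For muscle FAP against lung FAP the higher count was 6 under glmTreat, and 7 with library size only or without lung FAP 2, 3 and 4. For lung FAP against MEF 5 were higher and 0 lower. There 5 to 7 were higher (7 without lung FAP 4) and 0 to 1 lower (1 without lung FAP 1, 2 or 3 or muscle FAP 2 or 4) with 1 library left out, 6 were higher with limma-voom, 4 with glmTreat or the replicate block, and 8 were higher without lung FAP 2 and 4 or without lung FAP 2, 3 and 4. There was 1 lower member with DESeq2 size factors, limma-voom, the replicate block, length-adjusted offsets, both groups alone, without lung FAP 2 and 3, without lung FAP 2 and 4, or without lung FAP 2, 3 and 4, and 2 with library size only or the DESeq2 Wald test. Lamb1 for lung FAP against MEF was −0.0199 with library size only.

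Of all genes, muscle FAP against lung FAP gave 3574 higher and 3850 lower, 1730 and 7455 with library size only, and 732 and 1202 under glmTreat. Under glmTreat muscle FAP against MEF gave 3147 and 2745, and lung FAP against MEF 3413 and 2531. With library size only the receptors were 1 higher, the heparan sulfate genes 5 higher and 11 lower, the other basement membrane genes 12 lower, and the dystroglycan genes 0 higher and 12 lower. B3gnt1 was then at −0.0163 and Dpm1 at −0.15. Under glmTreat the higher receptors were 1, the higher heparan sulfate genes 2, the lower basement membrane genes 4, and the dystroglycan genes 0 in both directions. The filter of 5 CPM gave 2 lower heparan sulfate genes. The dystroglycan genes were 1 higher with upper-quartile scaling, no filter, the 5 CPM filter, both groups alone or without lung FAP 2 and 3, 0 higher without lung FAP 2, 3 and 4, and 1 to 2 higher with 1 library left out. They were 5 lower with upper-quartile scaling, the 5 CPM filter, limma-voom, without lung FAP 2 and 4, or without lung FAP 2, 3 and 4. With coding length Lama2 was 68.9% of alpha chains in muscle FAPs and 44.8% in lung FAPs, and alpha over Lamc1 was 0.716, 0.932 and 0.397 in muscle FAPs, lung FAPs and MEFs. The causes were not tested.

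Libraries with the same replicate number shared little deviation from their group means, with correlations of −0.048 to 0.061. These values cannot tell whether such libraries share an animal or a batch, which the labels do not give. With the replicate block Nid1 for lung FAP against MEF was 0.70 (edgeR adjusted p = 0.0536), Lama5 was −0.94 (adjusted p = 0.0279), and the calls of the other members were as without it. The lowest member level was 41 reads, so counting depth limits only Lama5 in muscle FAPs.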

Other observations

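Of 31 other basement membrane genes tested, 24 were higher and 5 lower in muscle FAPs against MEFs, with a median log2 fold change of 2.37, beside 36.1% and 37.3% of all genes. In the same list 21 were higher and 5 lower in lung FAPs against MEFs, with a median of 2.37, beside 37.8% and 36.6% of all genes. Both comparisons share the MEF libraries. Lamc3, a gamma chain named here after its values were seen, stood at 45.3 ± 7.83 CPM in muscle FAPs (SD, n = 4), 64.7 ± 27.9 in lung FAPs (SD, n = 5) and 1.57 ± 0.568 in MEFs (SD, n = 4), with edgeR adjusted p = 2.86e-07 and 1.02e-07 against MEFs. Lama1, an alpha chain of early embryos, ran the other way, at 0.474 ± 0.369 CPM in muscle FAPs and 5.49 ± 1.66 CPM in MEFs (SD, n = 4 each, edgeR adjusted p = 0.00521). Among lung FAPs it was 2.37 CPM in lung FAP 2 and at most 0.372 CPM in the others.

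Of 16 receptors for laminin and agrin, 6 passed as higher and 9 as lower in muscle FAPs against MEFs, beside 36.1% and 37.3% of all genes. The higher count was near that background. Itga6, an integrin subunit of laminin receptors that was also named after its values were seen, stood at 2.92 ± 1.07 CPM in muscle FAPs and 66.3 ± 12.8 CPM in MEFs (SD, n = 4 each, edgeR adjusted p = 3.12e-05). Among lung FAPs it was 17.9 CPM in lung FAP 2 and 2.21 to 5.12 CPM in the others.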
